A study of Homo sapiens with 6 samples.

Results

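The transcripts of antibody chains and of the proteins that assemble or anchor them were described in MM1.S, a line of human myeloma cells, with and without a knockdown of beta-catenin. The 10 member symbols were JCHAIN, MZB1, CD79A, CD79B, the heavy chain constant genes IGHA1, IGHG1, IGHM and IGHD, and the light chain constant genes IGKC and IGLC1. Every probe set that the array annotation pairs with a member symbol was taken, which gave 96 of 54613 probe sets. Of these, 42 carried 1 symbol and 54 were shared by several symbols, mostly of immunoglobulin genes. Probe sets were taken by symbol alone, but the member symbols were chosen with earlier results of these data known.

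Cells had been infected with a lentiviral vector (pKLO, GFP) that carried either a control hairpin (control shRNA) or one directed at beta-catenin, before a sort for GFP. Each group had 3 arrays of 1 colour. All 6 arrays came from 1 cell line, the labels name cultures in triplicate and no separate infections, and they do not give the hairpin sequence. The titles call the 3 arrays of each group biological replicates. With no separate infections named, the p-values measure only how far these cultures spread, which may be technical. Array medians lay between 5.44 and 5.54 on the deposited log2 scale, and having 6 arrays limits precision. The brightest CTNNB1 probe set (201533_at), which reads the targeted gene, averaged 7.75 ± 0.08 in control arrays and 6.42 ± 0.10 in knockdown arrays (SD, n = 3 each). Its fall was 2.51-fold (limma, adjusted p = 2.27e-07), and 1 of the other CTNNB1 probe sets, 223679_at, was higher by 0.33 (limma, adjusted p = 0.0390), a call lost under 10 of 18 alternatives, among them all 3 scalings (adjusted p 0.0758 to 0.0812) and each of 4 single arrays left out (0.0717 to 0.157). The third, 1554411_at, differed by −0.07 and was not called.

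An antibody is built from paired heavy and light chains that are folded and joined by disulfide bonds in the endoplasmic reticulum (ER). Plasma cells and myeloma cells make these chains in very large amounts, and a clone uses either a kappa or a lambda light chain. The J chain (JCHAIN) links the units of polymeric IgA and IgM, MZB1 is an ER protein that assists antibody folding and secretion, and CD79A and CD79B carry the signal of the B cell receptor at the surface of B cells. Plasma cell markers were checked first: 9 of 9 lay at or above 5.49, the median of all probe set means, and their summed signal ranged from 6065 to 6502 in control and from 6044 to 6329 in knockdown arrays. Of these 9 markers 3 were higher (SLAMF7 by 0.80, PRDM1 by 0.51 and CD38 by 0.39) and 2 lower (TNFRSF17 by −0.32 and IRF4 by −0.23), named after their values were seen. That is 55.6% called, against 29.1% of all genes and 38.3% of all probe sets at or above the median level. Marker means ran from 5.72 to 10.81, and 63.9% of all probe sets with a mean above 11 were called, so 38.3% is not matched in level. The IRF4 call was lost without knockdown replicate 1 (limma, adjusted p = 0.0917) or 3 (0.0542). Signal here is 2 to the power of the value, less the offset of 16.

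MZB1 and a group of dimmer, mostly shared heavy chain probe sets rose, and none of the 7 members with a mean above 11 passed the test. That level was chosen after the values were seen. The 5 members that fell had means from 5.61 (211637_x_at) to 10.21 (211430_s_at). Of the 96 member probe sets, 20 were higher and 5 lower in the knockdown, and 71 were not called (limma, Benjamini-Hochberg adjusted p under 0.05 over all 54613 probe sets). In bulk cultures, fewer cells that make a transcript and less of it per cell cannot be told apart. The called probe sets were 26% of the members, against 23.2% of all probe sets, so the share of members called was near the background. In the upward direction the members had 20.8% and all probe sets 13.3%; in the downward direction the members had 5.21% and all probe sets 9.95%. Below the median level 5 of 49 members were called (10.2%, against 8.19% of all probe sets there), and at or above it 20 of 47 (42.6%, against 38.3%). The median change was 0.08 over the members and 0.04 over all probe sets. Members shared sequence with each other, so these counts are not counts of independent transcripts.

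**Figure D1:**
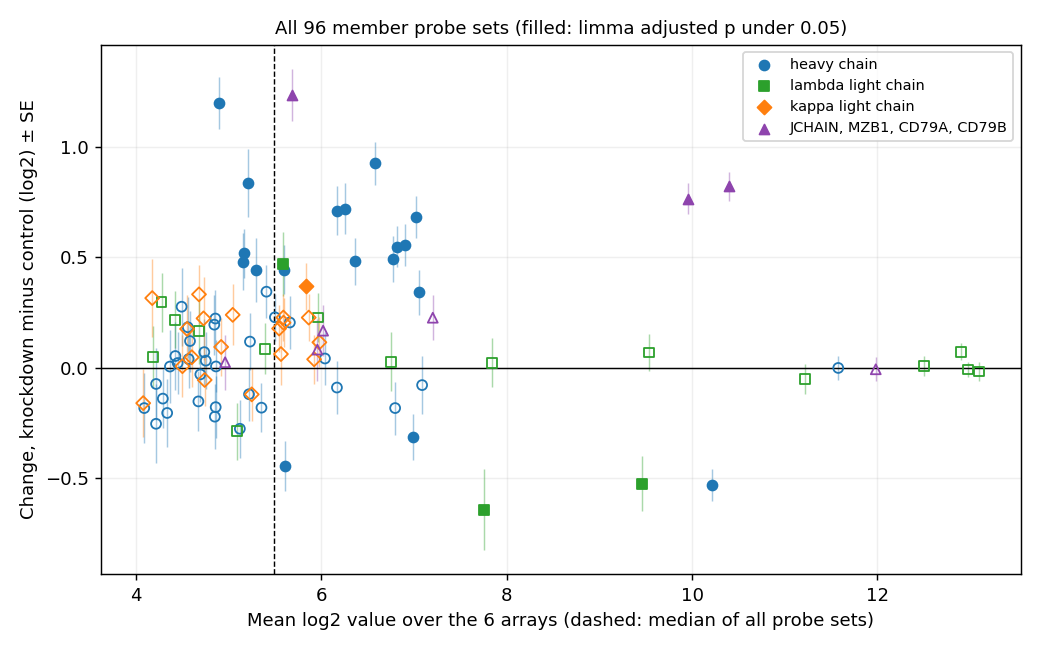
Change between groups (knockdown minus control, log2, with the standard error of the limma fit) against the mean level over the 6 arrays for the 96 member probe sets. Filled symbols passed the threshold; the rises lie mostly between 5 and 7, while the 7 members above 11 lie between −0.05 and 0.07.

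The upstream sequences of the assembly partners are shown because MZB1 rose and JCHAIN did not. RefSeq promoter entries (GRCh38.p14) were matched for 3 of the 10 members. The 150 bases before the start site are printed 5′ to 3′ on the gene's own strand, with HSPA5, the ER chaperone BiP, as the example of an ER stress gene. Capitals mark CCACG, the letters that end the classical ER stress response element, searched on both strands. Several other motifs were also looked at in these windows, and CCACG and the octamer named next were chosen after the sequences were seen.
MZB1 (chr5:139389914-139390063, minus strand): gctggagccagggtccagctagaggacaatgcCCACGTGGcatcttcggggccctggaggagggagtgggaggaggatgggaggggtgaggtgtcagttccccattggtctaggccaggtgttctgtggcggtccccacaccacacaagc
JCHAIN (chr4:70666509-70666658, minus strand): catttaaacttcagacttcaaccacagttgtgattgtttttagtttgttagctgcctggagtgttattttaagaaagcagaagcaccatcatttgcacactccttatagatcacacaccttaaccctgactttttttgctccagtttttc
CD79A (chr19:41877129-41877278, plus strand): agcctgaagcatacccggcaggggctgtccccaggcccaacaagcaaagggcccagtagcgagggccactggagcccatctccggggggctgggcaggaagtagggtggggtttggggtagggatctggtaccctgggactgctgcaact
HSPA5 (chr9:125241344-125241493, minus strand): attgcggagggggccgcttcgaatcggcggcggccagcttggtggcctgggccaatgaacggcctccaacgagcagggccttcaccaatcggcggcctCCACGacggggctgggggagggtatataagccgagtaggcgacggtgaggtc

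In the MZB1 window CCACG occurred 1 time on each strand, and the matches overlapped because CCACGTGG reads the same on both strands. In the HSPA5 window it occurred 1 time, and the JCHAIN and CD79A windows held no match. The HSPA5 match directly followed ccaatcggcggcct, while the MZB1 matches had no ccaat at that spacing on either strand. Only the end of the element was searched, so the MZB1 match is not a full element like that of HSPA5. Of 35116 promoter windows of the same length, 23.4% held CCACG on either strand. The octamer ATGCAAAT, the textbook element of immunoglobulin promoters, was in none of the 4 windows and in 0.988% of all of them. These matches describe letters and say nothing of binding in these cells.

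MZB1 rose in the knockdown, and JCHAIN was not called. JCHAIN (212592_at) read 11.92, 12.04 and 12.00 in the control arrays and 11.94, 11.91 and 12.09 in the knockdown arrays. The groups overlapped, and the difference was −0.01 (95% interval −0.12 to 0.11; limma, adjusted p = 0.953). MZB1 read 10.12, 9.98 and 9.87 in control and 10.80, 10.81 and 10.82 in knockdown arrays by its brighter probe set, 221286_s_at. Every knockdown array lay above every control array, a rise of 0.82 (SE 0.07), or 1.77-fold (limma, adjusted p = 5.90e-07). The other MZB1 probe set, 223565_at, read 9.69, 9.48 and 9.54 in control and 10.27, 10.40 and 10.34 in knockdown arrays. It rose by 0.77 (SE 0.07; limma, adjusted p = 2.08e-06), so both probe sets of the gene gave the same direction and a similar size. Both MZB1 calls held under each of the 19 alternatives tried.

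The difference between these partners was also taken within each array. JCHAIN minus MZB1 was 2.0 ± 0.17 in control arrays and 1.17 ± 0.09 in knockdown arrays (SD, n = 3 each), a shift of −0.83 (exact two-sided permutation p = 0.1, the smallest that 3 against 3 arrays can give; 0.2 adjusted over the 2 pairs compared). The within-array difference was smaller in each of the 3 knockdown arrays than in any control array.

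**Figure D2:**
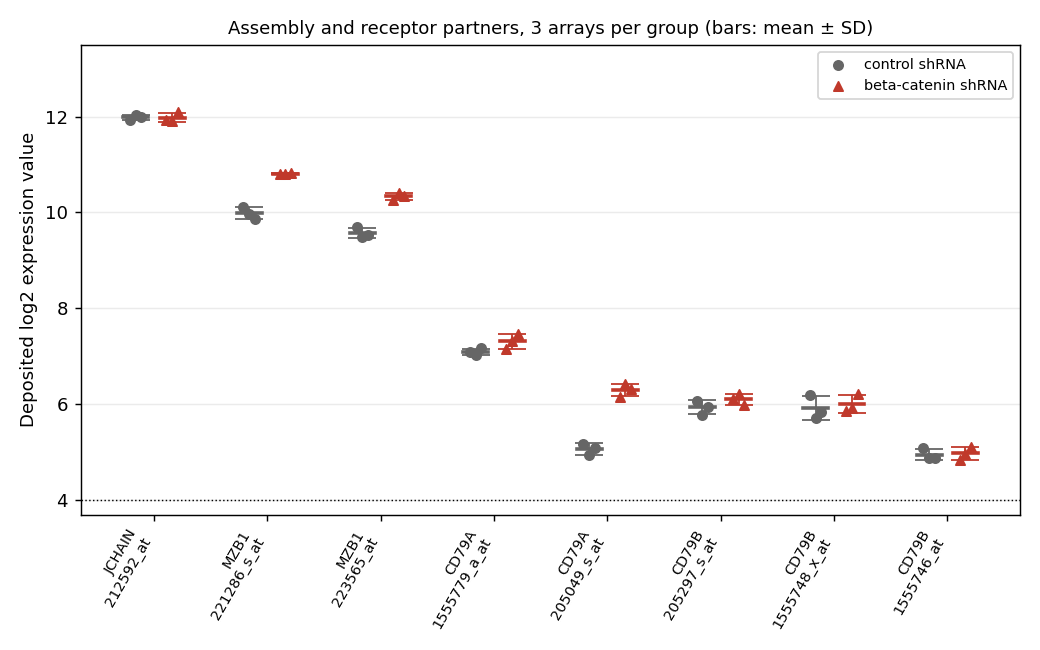
Deposited log2 values of the 8 probe sets of JCHAIN, MZB1, CD79A and CD79B in each of the 3 control (grey circles) and 3 knockdown (red triangles) arrays, with mean and SD; the dotted line is the table's floor at 4. MZB1 and 1 CD79A probe set separate between groups, and JCHAIN and the 3 CD79B probe sets overlap.

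Of the receptor partners, CD79A was called on 1 of its 2 probe sets and CD79B on none of its 3. CD79A, also called Ig-alpha, holds a signalling tail of the receptor. The dimmer one, 205049_s_at, read 5.17, 4.93 and 5.08 in control and 6.16, 6.41 and 6.33 in knockdown arrays, a rise of 1.24 (SE 0.12), or 2.36-fold (limma, adjusted p = 2.95e-06), which held under each of 18 alternatives. The brighter one, 1555779_a_at, read 7.08, 7.02 and 7.17 in control and 7.15, 7.33 and 7.47 in knockdown arrays. These groups overlapped and the difference of 0.23 (95% interval 0.0050 to 0.45) was not called (limma, adjusted p = 0.140). Where these probe sets lie in the transcript was not analysed, and the size of a CD79A change cannot be given from these 2 readings.

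CD79B, or Ig-beta, the partner of CD79A in the receptor, had 3 probe sets and none was called. Its brightest, 205297_s_at, read 6.08, 5.78 and 5.95 in control and 6.10, 6.22 and 5.99 in knockdown arrays, a difference of 0.17 (95% interval −0.08 to 0.42; limma, adjusted p = 0.353). The others differed by 0.08 and 0.03, and the intervals of all 3 reached above 0.29, so a rise of that size lies within them. With the brightest probe set of each gene, CD79A minus CD79B was 1.15 ± 0.13 in control arrays and 1.21 ± 0.24 in knockdown arrays (SD, n = 3 each; exact two-sided permutation p = 0.8; 0.8 adjusted over the 2 pairs). The groups overlapped in this difference, and the called CD79A probe set is not the one compared.

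The light chains showed a lambda pattern. MM1.S is known as a lambda light chain line, and the IGLC1 probe sets were among the highest values of the table. The brightest, 214677_x_at, read 13.08, 13.14 and 13.08 in control and 13.14, 12.99 and 13.13 in knockdown arrays, with only 12 probe sets above its mean. Of the 19 kappa probe sets, by contrast, none exceeded 6.11 on any array. Probe sets differ in how strongly they bind, so these levels are set side by side and are not amounts.

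None of the 5 brightest lambda probe sets was called. Beside 214677_x_at, which changed by −0.02 (95% interval −0.11 to 0.08), 209138_x_at changed by −0.01 (95% interval −0.08 to 0.07). The shared 215121_x_at (IGLV1-44 and IGLC1) read 12.87 in control and 12.94 in knockdown arrays on average and was not called (limma, adjusted p = 0.188), although its groups did not overlap. The shared 217148_x_at and 216984_x_at changed by 0.01 and −0.05. Together with JCHAIN and a shared heavy chain probe set, these made 7 members with a mean above 11, of which 0 were called (limma), and 0 of the 7 had an unadjusted p under 0.05. Among all 324 probe sets above that level, 63.9% were called. The level of 11 was chosen after the values were seen, and the lambda probe sets read overlapping sequence. The highest value of any probe set was 13.38, and whether the signal flattens near the top of the scale was not tested.

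Lambda probe sets of middle brightness gave 2 calls, both lower. IGLC1 probe set 215214_at read 9.77, 9.69 and 9.69 in control and 9.56, 8.92 and 9.10 in knockdown arrays. It fell by 0.52 (SE 0.12; limma, adjusted p = 0.00638), with groups that did not overlap but a knockdown SD of 0.33 against 0.05 in control. Probe set 217138_x_at read 8.47, 8.06 and 7.70 in control and 7.24, 7.22 and 7.83 in knockdown arrays, which overlap. Its fall by 0.64 (limma, adjusted p = 0.0199) was lost without control replicate 1 (adjusted p = 0.0972), knockdown replicate 1 (0.0954) or knockdown replicate 2 (0.10). At a similar level, 234851_at differed by 0.07 (9.50 against 9.57; limma, adjusted p = 0.620). Of 18 lambda probe sets in all, 2 fell, 1 rose and 15 were not called. That is 16.7% called, against 23.2% of all probe sets, and 25% against 38.3% at or above the median level. The riser, 234884_x_at, is shared with CKAP2, a gene of the mitotic spindle, and rose by 0.47 (limma, adjusted p = 0.0293). That call was lost without control replicate 1 (adjusted p = 0.120), knockdown replicate 2 (0.0977) or knockdown replicate 3 (0.110).

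**Figure D3:**
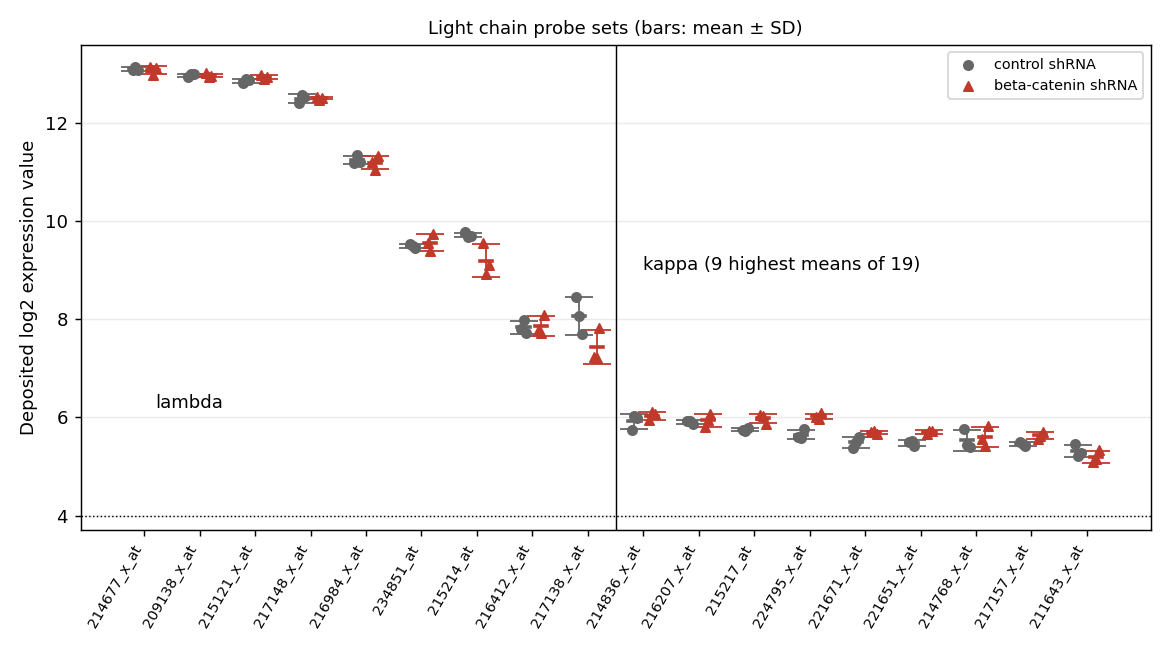
Deposited log2 values of the 9 lambda probe sets with a mean above 7 and the 9 kappa probe sets with the highest means, for 3 control (grey circles) and 3 knockdown (red triangles) arrays, with mean and SD; the dotted line is the floor at 4. Of the 5 brightest lambda probe sets none was called, and the kappa values stay at or below 6.11.

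Kappa probe sets lay near or below the middle of the table. Their means over the 6 arrays ran from 4.08 to 5.98, 11 of 19 were below the median of 5.49, and 2 were at the floor of 4 on at least 1 array. The share of kappa probe sets called was 5.26%, against 23.2% of all probe sets. Only 224795_x_at, shared with the IGK locus symbol, was called: it read 5.60, 5.59 and 5.77 in control and 6.00, 5.98 and 6.08 in knockdown arrays. The rise of 0.37 (limma, adjusted p = 0.0232) did not stand on every array: the adjusted p was 0.0654 and 0.0613 without control replicate 1 or 2, and 0.0690, 0.0577 and 0.0755 without knockdown replicate 1, 2 or 3. At this level the offset of 16 flattens changes, and reads of other immunoglobulin sequence cannot be told apart from kappa.

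The heavy chain had 51 probe sets, of which 15 rose, 3 fell and 33 were not called, and most of those that moved were shared. That is 35.3% called, 29.4% higher and 5.88% lower, against 23.2%, 13.3% and 9.95% of all probe sets. Shared probe sets gave 14 of the 15 rises and all 3 falls out of 34, or 50% called. The 17 with a single symbol gave 1 rise, or 5.88% called. At or above the median level lay 14 of the 34 shared and 6 of the 17 single-symbol probe sets. Of the 15 that rose, 13 carry the _x_ mark, which Affymetrix gives to probe sets that may bind several transcripts, as do 29 of all 51. Of the 20 at or above the median level, 13 (65%) were called, against 38.3% of all probe sets at that level. These 20 share sequence, so this is a description of overlapping readings.

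Neither of the 2 brightest heavy chain probe sets was higher in the knockdown. Probe set 211868_x_at, shared by IGHM, IGHG1, IGHD, IGHA1 and further heavy chain symbols, read 11.47, 11.66 and 11.60 in control and 11.57, 11.56 and 11.59 in knockdown arrays, and its groups overlapped (difference −0.00045, 95% interval −0.11 to 0.11; limma, adjusted p = 0.997). Probe set 211430_s_at, shared by IGHM, IGHG1, IGHG2 and a pair of microRNA symbols, read 10.62, 10.48 and 10.33 in control and 9.88, 9.97 and 9.99 in knockdown arrays. It fell by 0.53 (SE 0.07), or 1.44-fold (limma, adjusted p = 1.07e-04), and all knockdown arrays lay below all controls. A dimmer probe set of nearly the same symbols, 228518_at, went the same way, from 7.15 to 6.84 (limma, adjusted p = 0.0432). Its call was lost without control replicate 1 (adjusted p = 0.152) and without knockdown replicate 1, 2 or 3 (0.135, 0.135 and 0.0596).

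The heavy chain rises lay at control means from 4.30 to 6.89. The largest was that of 217022_s_at, shared by IGHA1, IGHA2 and the IGH locus symbol, the constant genes of IgA. It read 4.22, 4.31 and 4.37 in control and 5.54, 5.55 and 5.41 in knockdown arrays, a rise of 1.2 (SE 0.12), or 2.30-fold (limma, adjusted p = 3.99e-06). The controls were close to the floor, where the offset makes a fold too small. The 2 probe sets with IGHA1 as their only symbol, 234477_at and 234792_x_at, differed by −0.28 and −0.20 and were not called. Probe set 216318_at, which carries the same 3 symbols as 217022_s_at and is brighter, differed by 0.12 (5.17 against 5.29; limma, adjusted p = 0.579).

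A second strong rise was that of 216510_x_at, shared by IGHV3-23, IGHM, IGHG1 and IGHA1. It read 6.21, 6.06 and 6.08 in control and 7.06, 7.04 and 7.04 in knockdown arrays, a rise of 0.93 (SE 0.10; limma, adjusted p = 7.58e-06). IGHV3-23 is a variable gene segment of the heavy chain locus. Of the 5 member probe sets that carry its symbol, 3 rose, 1 fell and 1 was not called. Beside 216510_x_at, 214916_x_at rose by 0.49 and 211650_x_at by 0.44, while 211637_x_at fell by 0.44 (5.83 to 5.39; limma, adjusted p = 0.0106). The call of 211650_x_at was lost without knockdown replicate 2 (adjusted p = 0.0590). Probe sets under 1 V gene symbol thus moved in opposite directions.

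Further shared heavy chain probe sets rose by a similar amount. Probe set 217281_x_at went from 5.89 ± 0.18 to 6.61 ± 0.08 (SD, n = 3 each), 211639_x_at from 5.81 ± 0.11 to 6.52 ± 0.11, and 211641_x_at from 6.68 ± 0.08 to 7.36 ± 0.04. For 217360_x_at and 216557_x_at the rise was 0.56 and 0.55. Probe set 211632_at (IGHM, IGHG1 and IGHD) went from 4.80 ± 0.20 to 5.63 ± 0.28 (SD, n = 3 each; limma, adjusted p = 0.00106). The remaining rises were those of 217236_x_at (0.52), 216558_x_at (0.48), 217198_x_at (0.44) and 216542_x_at (0.34), and those of the last 3 were lost when single arrays were left out. The call of 217198_x_at was lost under 12 of 16 alternatives, all 3 scalings among them (adjusted p 0.0610 to 0.0832). In each of the 6 probe sets from 217281_x_at to 211632_at every knockdown array lay above every control array; over all 54613 probe sets the groups did not overlap in 37.2%.

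Probe sets with a single heavy chain symbol mostly did not pass, with 5.88% called against 23.2% of all probe sets. IGHG1 had 5, IGHM had 5, IGHD had 5 and IGHA1 had 2. The single call was 214973_x_at of IGHD, which read 6.05, 6.13 and 6.19 in control and 6.52, 6.75 and 6.54 in knockdown arrays and rose by 0.48 (SE 0.11; limma, adjusted p = 0.00424). The brightest IGHD probe set, 215621_s_at, differed by −0.08 (7.13 against 7.05; limma, adjusted p = 0.741). The brightest IGHG1 probe set, 216892_at, differed by −0.18, and the 5 IGHM probe sets differed by between −0.18 and 0.34.

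**Figure D4:**
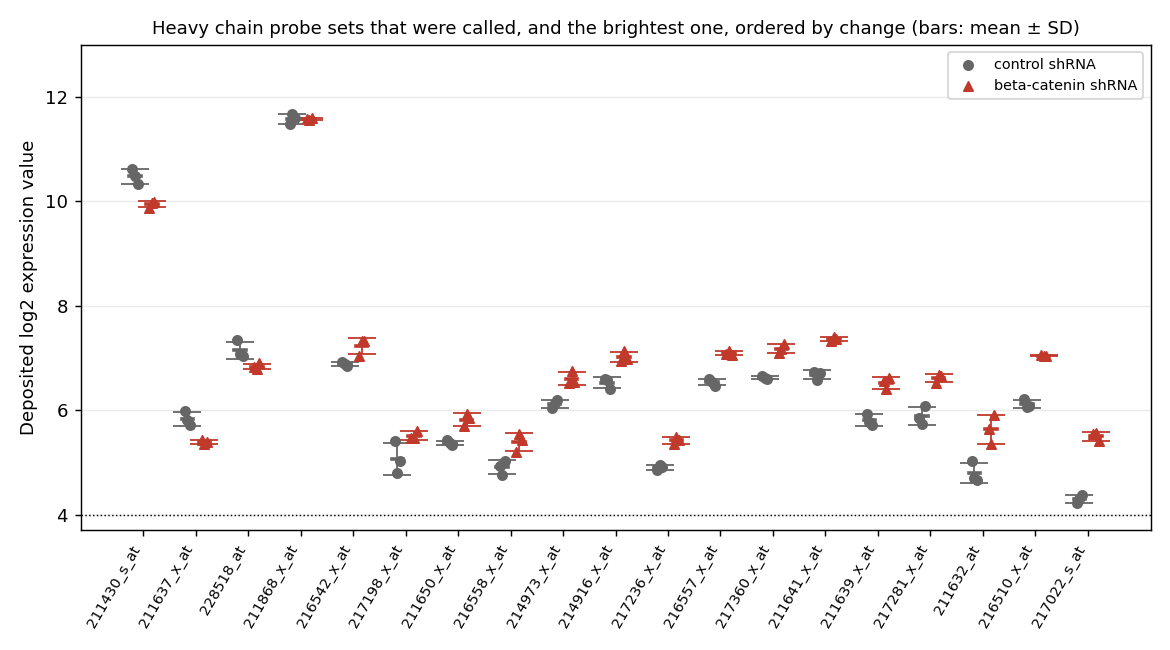
Deposited log2 values of the 18 heavy chain probe sets that were called and of 211868_x_at, the brightest heavy chain probe set, in order of their change from the lowest (left) to the highest (right), for 3 control (grey circles) and 3 knockdown (red triangles) arrays, with mean and SD. The 15 rises start from control means of 4.30 to 6.89.

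The remaining immunoglobulin probe sets of the array, 24 that carry heavy or light chain locus, V or J symbols and no member symbol, were counted beside the members: 2 rose, 1 fell and 21 were not called, or 12.5% against the 23.2% of all probe sets. The brightest of them, 215379_x_at of IGLV1-44, differed by 0.05 (12.43 against 12.48). IGLV6-57, another lambda V gene, read 4.50, 4.92 and 4.90 in control and 5.95, 6.04 and 5.67 in knockdown arrays on 215035_at, a rise of 1.11 (limma, adjusted p = 5.35e-05). The remaining riser was 211908_x_at of the IGK locus (0.35), whose call was lost under 11 of 18 alternatives, all 3 scalings among them (adjusted p 0.0553 to 0.0589). Probe set 234707_x_at of IGLV1-44 fell by 0.46, a call lost without knockdown replicate 1 (limma, adjusted p = 0.0629) or 2 (0.0610).

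The genes whose 6 values followed JCHAIN most closely were searched among 12931 genes at or above the median level. The measure was the mean absolute difference over the 6 arrays between deviations from the control mean. IGLL5, a gene of the lambda locus, came first with 0.01 on the log2 scale (11.53 in control and 11.54 in knockdown arrays). LINC02622 and PILRA followed with 0.01 and 0.02; both lay close to the median level.

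Genes of the ER machinery that receives the chains rose more often than they fell. Genes are read here by their brightest probe set with a single symbol; over all 19775 genes, 29.1% were called, 15.8% higher and 13.4% lower, with a median change of 0.04. Of 24 genes of folding and disulfide assembly, 15 rose, 1 fell and 8 were not called, with a median change of 0.37. All 24 lay at or above the median level, where 38.3% of all probe sets were called, 21.2% higher and 17.1% lower. Their means ran from 5.56 to 11.08. The share called grew with level, to 63.9% of all probe sets above 11 (32.1% higher and 31.8% lower), so 38.3% is not a share at a matched level. DNAJB9, a co-chaperone of BiP, rose by 2.41 (5.31-fold; limma, adjusted p = 7.04e-11), from 8.74 to 8.95 in control to 11.18 to 11.36 in knockdown arrays. HSPA5, the chaperone BiP that holds unpaired heavy chains in the ER, rose by 1.29 and the chaperone HYOU1 by 1.31. CRELD2, an ER stress gene, rose by 1.27 (limma, adjusted p = 1.42e-07). The member that fell was ERO1A, an oxidase that drives disulfide formation, which changed by −0.91 (7.51 against 6.60; limma, adjusted p = 1.92e-05). It was named after its value was seen.

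**Figure D5:**
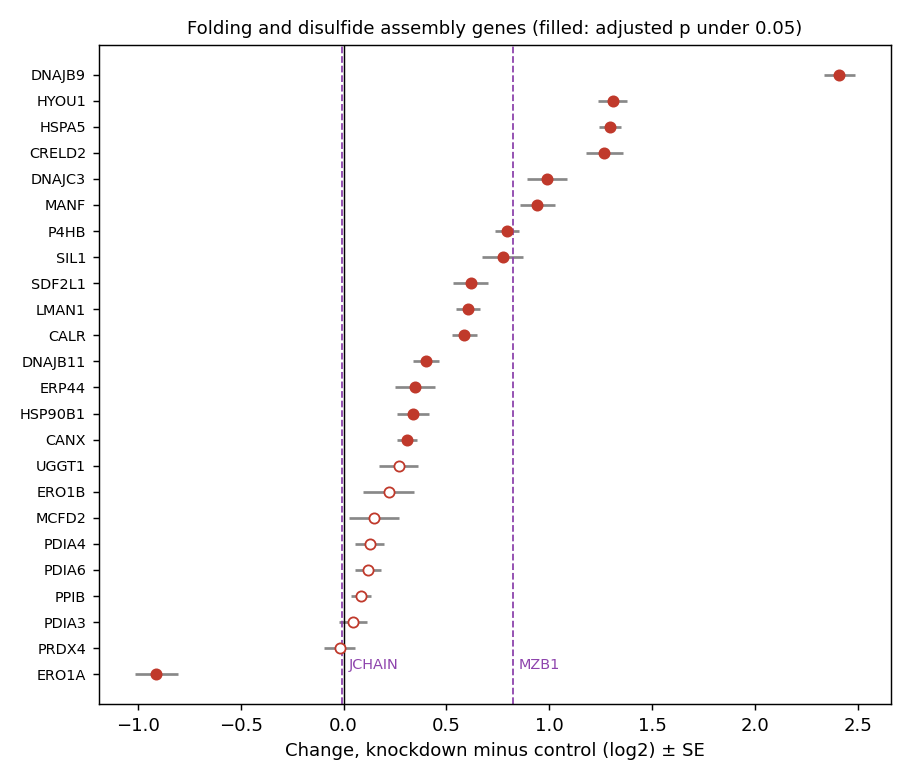
Change between groups (knockdown minus control, log2) with the standard error of the limma fit for the 24 genes of folding and disulfide assembly, filled where the adjusted p was under 0.05; dashed lines mark MZB1 (0.82) and JCHAIN (−0.01). The points run from −0.91 for ERO1A to 2.41 for DNAJB9.

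Genes of chain entry into the ER included 5 that fell beside the larger number that rose. Of 27 genes of translocation, signal peptide cleavage and glycan transfer, 17 rose, 5 fell and 5 were not called, with a median change of 0.25. All 27 also lay at or above the median level, where 38.3% of all probe sets were called, 21.2% higher and 17.1% lower. With means from 7.25 to 11.54 they were not matched to that share in level, and above 11 it was 63.9%. SPCS1, a subunit of the signal peptidase, rose by 0.74 (limma, adjusted p = 5.02e-08), DDOST, of the oligosaccharyltransferase, by 0.66, and SEC62 and SSR4, of the translocation site, by 0.95 and 0.60. The 5 that fell included subunits of the signal peptidase and of the oligosaccharyltransferase, so the named genes do not stand for their whole complexes. The 22 called genes, both directions together, became 14 without the intensity trend and 10 when tested against a 1.2-fold change.

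Factors that control immunoglobulin transcription and RNA processing were split. Of 16 genes, 4 rose, 4 fell and 8 were not called, with a median change of −0.06. That is 50% called, 25% higher and 25% lower, against 29.1%, 15.8% and 13.4% of all genes. Of the 16, 13 lay at or above the median level, where 38.3% of all probe sets were called. PRDM1, or Blimp-1, the repressor that fixes plasma cell identity, rose by 0.51 (9.15 to 9.66; limma, adjusted p = 7.44e-05) and was called higher on each of its 3 probe sets, of which 235668_at (0.22) lost the call under 9 of 19 alternatives, including control replicate 1 (adjusted p = 0.0547), control replicate 2 (0.0589), knockdown replicate 1 (0.147) and knockdown replicate 3 (0.0829) left out. XBP1, a driver of the secretory programme, differed by −0.11 (10.87 against 10.76; limma, adjusted p = 0.146), which counts all its forms on this probe set since its spliced message was not analysed here. POU2AF1, the octamer co-activator, differed by 0.04 (95% interval −0.10 to 0.18). UNG, the uracil glycosylase of class switching and base repair, fell by 1.88 (3.69-fold), TCF3, or E2A, fell by 0.87 and TCF4, or E2-2, rose by 1.10.

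Among signalling partners of the B cell receptor, rises outnumbered falls. Of 20 receptor signalling genes, 9 rose, 2 fell and 9 were not called, with a median change of 0.26. That is 55% called and 45% higher, against 29.1% and 15.8% of all genes. Of the 20, 14 lay at or above the median level. PTPN6, the phosphatase SHP-1, rose by 1.03 (2.05-fold; limma, adjusted p = 3.06e-07), CR2, the complement receptor CD21, by 1.05, and VAV1 by 0.59. SYK, the kinase that docks on phosphorylated CD79A and CD79B, fell by 0.68 (7.15 to 6.47; limma, adjusted p = 1.49e-04). Of 11 immunoglobulin receptors and binding proteins, 4 rose, 0 fell and 7 were not called, with a median change of 0.05. In both directions together 36.4% were called, near the 29.1% of all genes. By direction, 36.4% were higher against 15.8% of all genes, and 0% lower against 13.4%. FCRLA, an intracellular binder of immunoglobulin, read 6.50, 6.27 and 6.52 in control and 8.59, 8.55 and 8.50 in knockdown arrays, a rise of 2.12 (limma, adjusted p = 2.34e-09). FCMR, the receptor for the IgM heavy chain, rose by 0.72, FCRL5 by 0.74 and FCAR, the IgA receptor, by 0.35. The FCAR call was lost without control replicate 3 (limma, adjusted p = 0.109), knockdown replicate 1 (0.104) or knockdown replicate 2 (0.112).

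Markers of mature B cells are given beside the CD79A and CR2 rises. Of 7 B cell markers, 2 were higher, CR2 and BACH2, and 5 were not called. The share called was 28.6%, near the 29.1% of all genes. By direction, 28.6% were higher against 15.8% of all genes, and 0% lower against 13.4%. Their summed signal ranged from 315 to 371 in control and from 447 to 501 in knockdown arrays. CR2 is 1 of the 7 and went from 6.00 to 7.04, so this sum is no separate reading beside the CR2 rise. The defining B cell gene MS4A1, or CD20, differed by −0.0051 and lay below the median level, and PAX5 also lay below it. No B cell marker was at the floor of 4 in all arrays, and their part in the CD79A result was not tested. Of the lists for lineages that the culture should lack, limma called 0 of 7 T and NK, 0 of 7 myeloid, 0 of 6 fibroblast, 0 of 5 kidney packaging line and 0 of 3 erythroid markers, with 0, 1, 1, 0 and 2 at an unadjusted p under 0.05. In the same order, 2, 4, 4, 3 and 1 of these markers lay at or above the median level. The brightest erythroid marker averaged 8.99 and the brightest fibroblast marker 7.96. These counts therefore speak of change and do not show that the markers were silent.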

How the data were processed

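The 6 one-colour Affymetrix arrays of MM1.S cultures were used, 3 with control shRNA and 3 with beta-catenin shRNA. The authors deposited log2 values with a floor of 4; the form log2(signal + 16) was read from the values. MAS5 and PLIER are named per the submitters' processing notes without versions or roles, and how arrays were normalized is not stated there. Label text about embryos contradicts the cell line and was not used. Probe sets were named through the platform annotation, which can be old. Control probe sets were left out and 54613 were tested with limma 3.58.1 in R 4.3.3 (lmFit, eBayes with an intensity trend) on the values as deposited, with Benjamini-Hochberg adjustment and a threshold of 0.05. The test was checked on simulated data. Intervals are 95% moderated intervals. Differences are log2 knockdown less log2 control, and the offset makes the fold of dim probe sets too small. A gene outside the members is read by its brightest probe set with 1 symbol. Named are every member, CTNNB1, HSPA5, XBP1, POU2AF1, PRDM1, up to 4 called genes of each list by adjusted p, and the 3 genes most like JCHAIN. Members and gene lists were chosen with earlier results of these data known. Alternatives covered scaling, offset, filters, moderation, a replicate block, probe set choice and leaving out each array.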

Additional observations from a re-analysis of the deposited data

How the results depend on the processing

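Numbers are counts of called features under the alternative, with the value in the text in parentheses at first mention. With only probe sets above the 75th percentile of level, 8261 probe sets were called (12693), 12 members (25), 8 members higher (20), 6 heavy chain probe sets higher (15) and 5 genes of the transcription list (8). Without the intensity trend, 14 genes of the translocation list were called (22). Without moderation of the variances, 7094 probe sets, 3438 genes (5762) and 2 members lower (5) were called. Tested against a 1.2-fold change, the counts were 5042 probe sets, 2533 genes, 11 members, 10 higher, 1 lower, 7 heavy chain higher, 10 of the translocation list and 7 of the receptor signalling list (11). With single-symbol probe sets only, 7 members were called, 5 higher and 2 lower, with 2 heavy chain probe sets higher. The filter and the single-symbol choice leave fewer features and the 1.2-fold test is stricter by construction; for the trend and the moderation the cause was not tested. Leaving out 1 array gave 17 to 23 members, 14 to 18 higher and 3 to 5 lower, the 3 without control replicate 1, knockdown replicate 1 or knockdown replicate 2. It gave 9526 to 11863 probe sets, 4475 to 5463 genes and 11 to 15 heavy chain rises. Scaling moved the balance over all probe sets from 57.2% higher to 47.2% with array medians aligned, 50.7% with quantile and 49.9% with cyclic loess normalization, and members then gave 18, 18 and 19 higher and 5 lower in each. No call reversed among the member probe sets or the named probe sets outside the members; the latter were run as an addition chosen after seeing the data. Of the 33 called ones outside the members, 23 kept the call under every alternative run. Members that were not called gained a call 4 times: 230877_at and 221651_x_at without moderation, and 215949_x_at with robust variance or with single-symbol probe sets only. The replicate numbers do not pair the arrays (correlations of deviations −0.04, −0.12 and −0.22); the replicate block called 11148 probe sets and 22 members, and the calls of 216542_x_at (adjusted p = 0.0704), 228518_at (0.0992) and 224795_x_at (0.0554) were lost.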
